A study of Ovis aries with 6 samples.

Results

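KRTAP5.4 and KRTAP4.3 encode keratin-associated proteins, the small proteins that form the matrix of the wool fibre. They were chosen by name: all non-control array probes whose accession is a sheep RefSeq mRNA of either gene were taken. This gave 2 probes with 6 spots, out of 15008 probes with 15208 spots, and 2 of the 476 genes that could be named. KRTAP5.4 (probe A_70_P051031, mRNA NM_001009398) had 1 probe printed at 5 places on each array. KRTAP4.3 (probe A_70_P016416, mRNA NM_001161382) had 1 probe with 1 spot. The gene table used for naming holds 6 symbols that start with KRTAP, and the other 4 matched no probe by accession.

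The skin came from Aohan fine wool sheep of 12 months, 1 ram and 2 ewes by one father, kept in pens; the labels name no treatment. From each animal a full-thickness piece came from the body side, which bears wool, and another from the groin, which does not, and each sample was hybridised to its own single-colour (Cy3) Agilent sheep array. This gave 3 body side and 3 groin arrays; replicate 1 is the ram at both sites, and replicates 2 and 3 are ewes, whose numbers are not said to match between sites. The title of the series places the wool in its growth phase, anagen. Full-thickness skin holds epidermis, dermis, follicles, glands and vessels together, and in such bulk tissue fewer cells of a type and less RNA per cell cannot be told apart.

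A wool fibre is built from keratin intermediate filaments embedded in a matrix of keratin-associated proteins. These proteins are rich in cysteine or in glycine and tyrosine, and disulphide bonds between them and the keratins harden the fibre as its cells die above the follicle bulb. The KAP4 and KAP5 families are both of the cysteine-rich, ultra-high-sulphur kind. In sheep follicles, KAP4 genes are known from the cortex of the fibre and KAP5 genes from its cuticle, the layer of overlapping scales around the cortex.

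The number of probes well above background was lowest on body side array 1, at 10730, and highest on groin array 3, at 14053. The groin arrays were brighter: the 75th percentile of the signal ran from 3677 to 4401 on them and from 1103 to 2048 on the body side (2.98-fold between the site means; p = 0.1 in a two-sided exact permutation test, which cannot go lower with 3 arrays a site). All groin arrays were read in 1 scan and all body side arrays in a different one; the effects of scan and of site cannot be told apart. A level here is on the log2 scale, relative to the 75th percentile of the array's probes, and a difference is body side minus groin. The limma fit, with a threshold of 0.05 on the adjusted p, called 69.9% of the 13278 tested probes, 37.0% as higher on the body side and 32.8% as lower. Higher calls were thus 53.0% of the calls; with median centring or normexp background correction they were 68.5%.

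KRTAP5.4 was strongly expressed in wool-bearing skin and 31.7-fold higher there than in the groin. Its levels on the groin arrays were 1.57, 1.46 and 0.83 for replicates 1, 2 and 3, and on the body side arrays 6.58, 5.75 and 6.50. Every body side array thus lay above every groin array, a separation that 39.4% of all tested probes showed in the same direction. The closest body side and groin arrays were still 4.18 apart on the log2 scale, whereas the arrays of a site spanned 0.74 in the groin and 0.82 on the body side. It averaged 6.28 ± 0.46 in wool-bearing skin against 1.29 ± 0.40 in the groin (SD, n = 3 each). The difference was 4.99 ± 0.29 SE, with a 95% confidence interval from 4.33 to 5.64 (limma adjusted p = 9.94e-06).

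KRTAP4.3 was also higher on the body side, by a smaller factor of 7.68. Its groin levels were 0.016, 0.52 and 0.10 for replicates 1, 2 and 3, and its body side levels 2.86, 3.42 and 3.19. The sites did not overlap here either: the smallest gap between a body side and a groin array was 2.34, and the arrays of a site spanned 0.51 in the groin and 0.56 on the body side. It averaged 3.16 ± 0.28 in wool-bearing skin against 0.21 ± 0.27 in the groin (SD, n = 3 each). The difference was 2.94 ± 0.22 SE, with a 95% confidence interval from 2.45 to 3.44 (limma adjusted p = 2.48e-05). Both probes were thus called higher; with 69.9% of all tested probes called and 37.0% called in this direction, the calls alone say little, and the sizes of the differences carry the comparison.

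**Figure D1:**
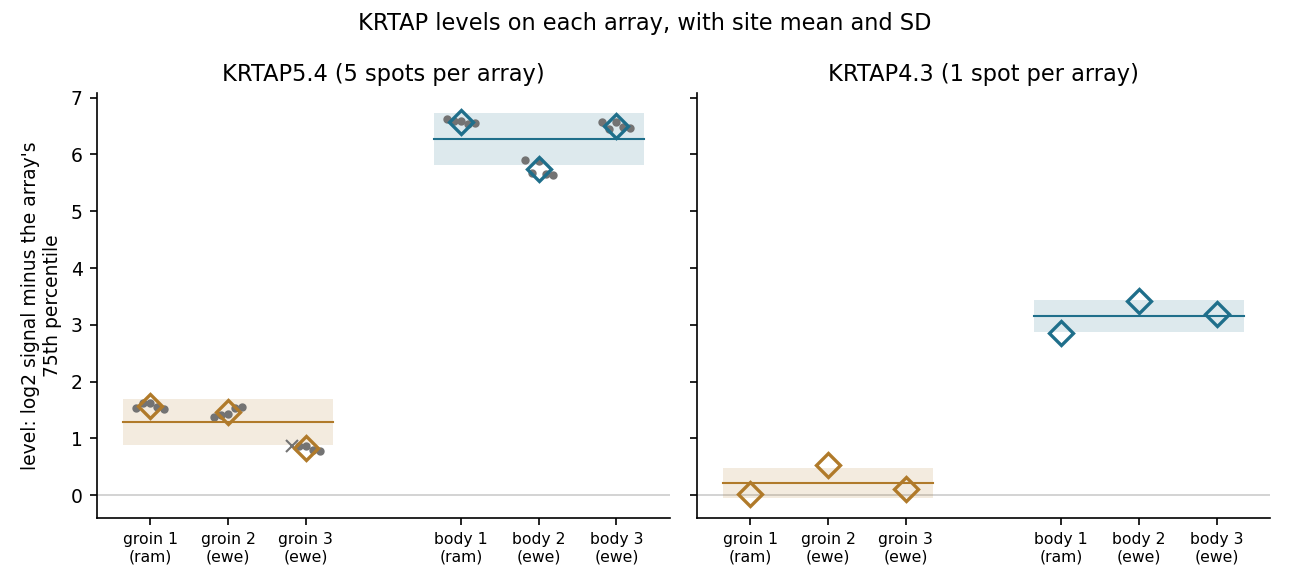
Level of KRTAP5.4 and KRTAP4.3 on each array (log2 scale, relative to the array's 75th percentile, vertical axis); diamonds are arrays, grey dots the single spots of KRTAP5.4, the cross a spot set aside for its outlier flag, lines the site means and bands ± 1 SD of 3 arrays. KRTAP5.4 sits between 0.83 and 1.57 in the groin and between 5.75 and 6.58 on the body side, and KRTAP4.3 between 0.016 and 0.52 and between 2.86 and 3.42.

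Both probes also gave clear signal in groin skin. The spots of both probes were well above background on all 6 arrays. The KRTAP5.4 spots in the groin were between 155 and 226 times as bright as their local background, and that of KRTAP4.3 between 63.8 and 76.3 times. In the groin KRTAP5.4 was brighter than 83.5% to 88.1% of the probes of its array, and KRTAP4.3 brighter than 75.2% to 80.3%. On the body side these shares were 98.5% to 98.8% and 90.8% to 94.3%. Such shares depend on each probe's own binding as well as on its transcript, so the 2 genes are not ranked against each other.

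Both genes were higher on the body side even before any scaling, although the body side arrays were dimmer. The processed signal of KRTAP5.4 was 10952, 11478 and 7833 on groin arrays 1, 2 and 3, and 105173, 110391 and 102669 on the body side arrays. That is a 10.7-fold difference (log2 3.41 ± 0.29 SE, limma adjusted p = 1.03e-05), and the sites again stood clearly apart. The signal of KRTAP4.3 was 3719, 6001 and 4728 in the groin and 8016, 21913 and 10312 on the body side, a 2.58-fold difference (log2 1.37 ± 0.40 SE, limma adjusted p = 0.0104). The sites did not overlap for it, but the highest groin array and the lowest body side array lay close. Without scaling, 1.43% of the tested probes were called higher on the body side, and for 2.80% all body side arrays lay above all groin arrays. The median difference of all tested probes was then -1.47, against 0.10 with scaling.

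**Figure D2:**
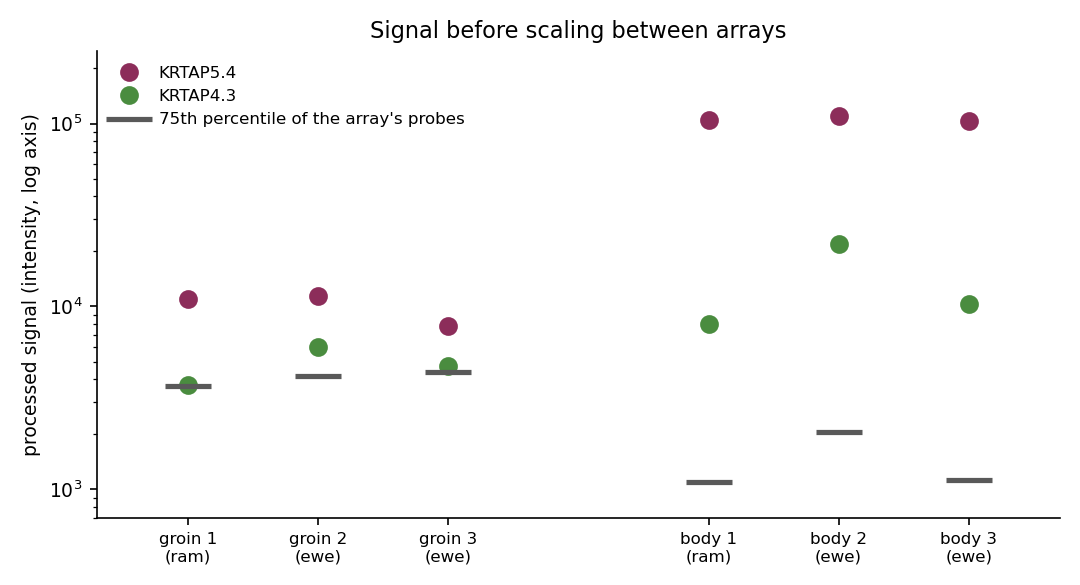
Processed signal of the 2 KRTAP probes on each array before scaling (intensity, log axis), with the 75th percentile of the array's probes as a bar. The percentile is lower on the 3 body side arrays (1103 to 2048) than on the groin arrays (3677 to 4401), whereas KRTAP5.4 rises from at most 11478 to at least 102669.

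The 2 genes did not vary alike among the body side arrays. With a single array per animal and site, the effects of animal and of array cannot be told apart. The unscaled signal of KRTAP5.4 spanned only 1.08-fold over these 3 arrays, while their 75th percentile spanned 1.86-fold and KRTAP4.3 spanned 2.73-fold. Body side array 2, a ewe, was the brightest array of its site. Set against the mean of body side arrays 1 and 3, it was higher by 0.79 on the log2 scale at the median of all tested probes, by 0.09 for KRTAP5.4 and by 1.27 for KRTAP4.3. For the 111 other probes within 0.5 log2 units of the body side signal of KRTAP5.4, the median was 0.30, and for the 530 within that distance of KRTAP4.3 it was 0.48. Scaling by the 75th percentile therefore left KRTAP5.4 lowest and KRTAP4.3 highest on that array, as the levels above show.

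The 5 spots of KRTAP5.4 gave a measure of error within an array. The brightest of them was between 1.06 and 1.20 times as bright as the dimmest, with an SD of 0.033 to 0.13 on the log2 scale. This was smaller than the SD of the scaled levels among arrays, at 0.40 in the groin and 0.46 on the body side. Those SDs include the scaling. Before it, the brightest array was 1.08 times the dimmest on the body side and 1.47 times in the groin. The 75th percentile spanned 1.86-fold and 1.20-fold over the same arrays. These array values are means over spots, so their spread is not measured on the scale of the range between single spots. A spot on groin array 3 carried an outlier flag and was set aside. With each of the 5 spots alone, the site difference ran from 4.91 to 5.03 (the lowest from the flagged spot's position, fitted without groin array 3), and with the flagged spot kept it was 4.99. All 5 spots were read from the low-gain scanner pass on every body side array and from the usual pass on every groin array. Such a change of pass between the sites was found for 33 tested probes, and its part in the size of the difference was not tested. The KRTAP4.3 spot was read from the usual pass on all 6 arrays, and no spot was saturated.

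The site differences of both genes were large against those of probes of similar brightness. Over all tested probes the difference moved with brightness: when they were split into 10 equal groups by mean level, the median was 1.14 in the brightest group, which holds KRTAP5.4, and 0.68 in the next, which holds KRTAP4.3. KRTAP5.4 exceeded the median of its group by 3.85 and ranked 7 of its 1328 probes. KRTAP4.3 exceeded that of its group by 2.27 and ranked 12 of 1328. Ordered from the highest on the body side down, the differences ranked 11 for KRTAP5.4 and 88 for KRTAP4.3 among all 13278 tested probes, and 1 and 8 among 442 tested named genes. By size in either direction they ranked 41 and 504 of 13278. Among the 111 probes close to KRTAP5.4 in body side signal, 101 were called higher too, but only 2 had a difference at least as large. Among the 530 close to KRTAP4.3, 422 were called higher and 7 had a difference at least as large.

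**Figure D3:**
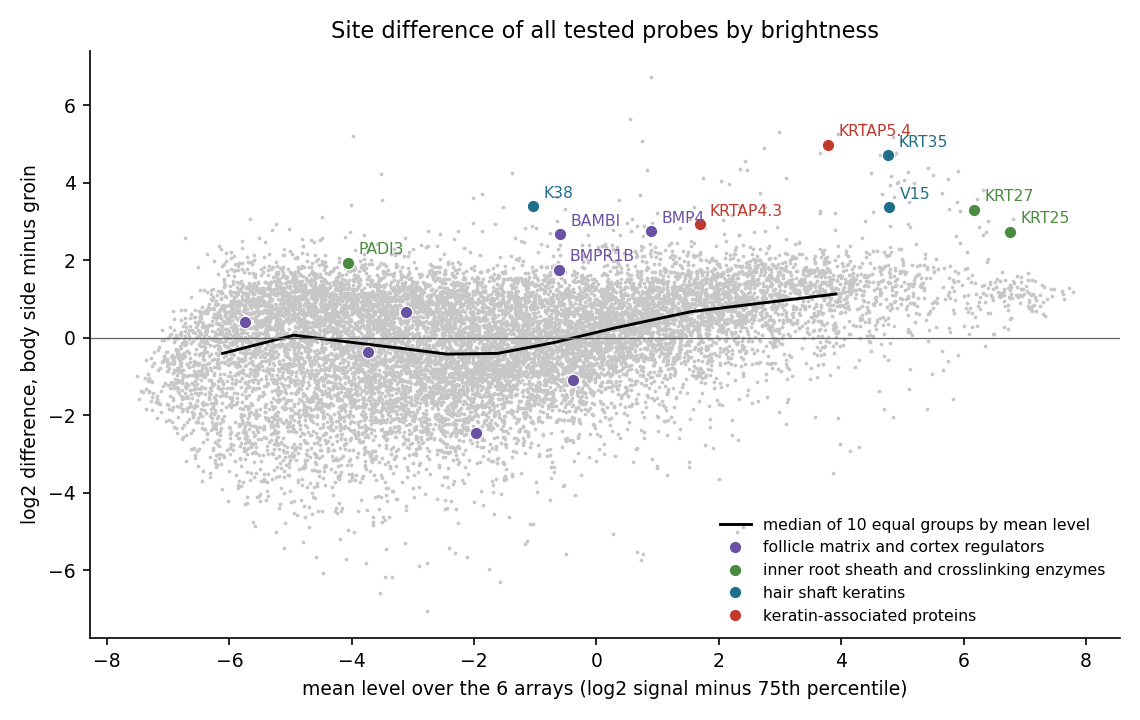
Log2 difference between body side and groin (vertical axis) against the mean level over the 6 arrays (horizontal axis) for all tested probes in grey, with genes of 4 lists in colour and the median of 10 equal groups by level as a line. The line reaches 1.14 in the brightest group, and KRTAP5.4 (4.99) and KRTAP4.3 (2.94) lie above it, with KRT35 beside KRTAP5.4.

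The other tested genes of the fibre and its sheath were higher on the body side as well. Of 39 names in the list of keratin-associated proteins, 5 are current symbols of the gene table and only KRTAP5.4 and KRTAP4.3 had a named probe. The median of their 2 differences, already given above, was 3.97. It was 0.10 over all tested probes, and 1.14 and 0.68 in the brightness groups of KRTAP5.4 and KRTAP4.3. Of the hair shaft keratin list, all 3 tested genes rose, where 37.0% of all tested probes did; the sizes say more than the count. KRT35, an acidic keratin made early in the cortex and cuticle, rose by 4.72 ± 0.23 SE. V15 (synonym KRT31), a keratin of the cortex, rose by 3.36 ± 0.17, and K38, another wool keratin, by 3.40 ± 0.24; their second probes gave 3.01 and 4.25. The inner root sheath is the tube that moulds the growing fibre, and all 3 tested genes of its list rose (37.0% of all probes). They were its keratins KRT27 (3.31 ± 0.27) and KRT25 (2.74 ± 0.28) and PADI3 (1.94 ± 0.20), an enzyme that converts arginine to citrulline in its structural proteins. The highest limma adjusted p among these 6 genes was 9.00e-05. The sizes moved with the scaling: with cyclic loess they were 3.44 for KRT35, 2.08 for V15, 1.75 for KRT27 and 1.06 for KRT25, and with the deposited values 3.66, 2.17, 2.03 and 1.36. Without scaling, each difference in this and the next paragraph was lower by 1.57. Without scaling the call on PADI3 ended, at 0.37 (limma adjusted p = 0.38; over the alternatives this p ran from 8.74e-06 to 0.38).

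Regulators of the follicle matrix and cortex did not share one direction. Of 8 tested genes, 4 rose, 2 fell and 2 did not pass, with a median of 0.54; this share of calls is near the 69.9% of all tested probes and is no result about the list. FGF10, a growth factor counted as not passing by its brightest probe at -0.37, had 3 other tested probes at -3.01, -1.3 and -2.16. BMP4, a secreted signal that favours differentiation in the follicle, rose by 2.75 ± 0.17 SE. BAMBI, a pseudoreceptor that dampens BMP and TGF-beta signals, rose by 2.68 ± 0.23 (3.63 with its second probe), and the receptor BMPR1B by 1.76 ± 0.21. FGF7, a growth factor made by dermal papilla cells, fell by 2.46 ± 0.25 (by 1.86 with normexp). The highest limma adjusted p among these 4 was 1.78e-04. Without scaling the call on BMPR1B ended, at 0.19 (limma adjusted p = 0.558; over the alternatives this p ran from 2.14e-05 to 0.558). The transcription factors FOXN1 and HOXC13, which switch on hair keratin genes, had no named probe here.

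Signal ratios within an array are free of any factor that scales a whole array. They are not free of quantile or loess normalization, which act by brightness. A change of scanner pass for a single gene of a ratio does not cancel either. KRTAP5.4 changed pass between the sites and KRTAP4.3 did not, and the part of this in the ratios was not tested. The pass of the keratin probes in the ratios is not given here. The ratios were used to ask whether the KRTAP genes changed by the same factor as the keratins. The change of a ratio between sites compares the genes' differences, not their amounts, and 11 such ratios were computed. KRTAP5.4 had a larger difference than KRTAP4.3. The log2 ratio of their signals was 1.56, 0.94 and 0.73 on groin arrays 1, 2 and 3 and 3.71, 2.33 and 3.32 on the body side arrays. It thus rose by 2.05, or 4.13-fold (the genes' differences were 1.49 to 2.29 apart over the scalings and background settings), with no overlap of the sites (two-sided exact permutation p = 0.1, again the lowest possible; 0.157 after Benjamini-Hochberg adjustment over the 11). The ratios were added after the data were seen, and none can pass at this number of arrays.

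KRTAP5.4 and KRT35 changed by nearly the same factor. Their log2 ratio was -0.98, -1.01 and -1.37 on groin arrays 1, 2 and 3, and -0.84, -0.94 and -0.78 on the body side. The ratio rose by 0.26, and by 0.24 with the second KRT35 probe. The body side arrays all lay above the groin arrays, but the smallest gap was narrow (exact permutation p = 0.1, adjusted 0.157). Over the scalings KRTAP5.4 exceeded KRT35 by 0.26 to 0.47. Its ratios to the other keratins differed more between sites. The ratio to K38 was higher on the body side by 1.59 (0.74 with the second K38 probe), to V15 by 1.62 (1.98 with the second V15 probe), to KRT27 by 1.68 and to KRT25 by 2.25, each without overlap and at the same p. On the body side the ratios of KRTAP5.4 to KRT35, K38 and KRT27 had SDs of 0.080, 0.074 and 0.087, and those to KRT25 and V15 SDs of 0.19 and 0.46. The excess over K38 was small under brightness-dependent scaling: 0.52 with quantile normalization, 0.32 with cyclic loess and 0.35 with the deposited values. In the same 3 settings it was 1.84 to 1.89 over V15, 1.95 to 2.17 over KRT27 and 2.60 to 2.86 over KRT25, all above the values without such scaling.

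KRTAP4.3 did not separate from the other keratins in this way. Its ratio changed by -0.42 to V15, -0.46 to K38, -0.37 to KRT27 and 0.21 to KRT25, and for each of these 4 the arrays of the sites overlapped (exact permutation p from 0.2 to 0.9, adjusted 0.275 to 0.9), which does not show that they changed alike. The direction turned with the scaling for V15 (0.34 with quantile normalization, 0.24 with cyclic loess, 0.39 with the deposited values) and for KRT27 (0.40, 0.57 and 0.53). The gap to KRT25 grew to 1.05, 1.26 and 1.20 in these settings, and that to K38 became -1.03, -1.28 and -1.14. With the second K38 probe the change was -1.31 and with the second V15 probe -0.07. Its ratio to KRT35 fell by 1.78, or 3.44-fold, with no overlap (exact permutation p = 0.1, adjusted 0.157), and the gap was -1.10 with the deposited values. The body side SDs of these ratios were 0.65 for KRT35, 0.67 for K38, 0.76 for KRT27 and KRT25, and 0.26 for V15. Body side array 2 had the highest of the body side values in all 5 ratios.

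**Figure D4:**
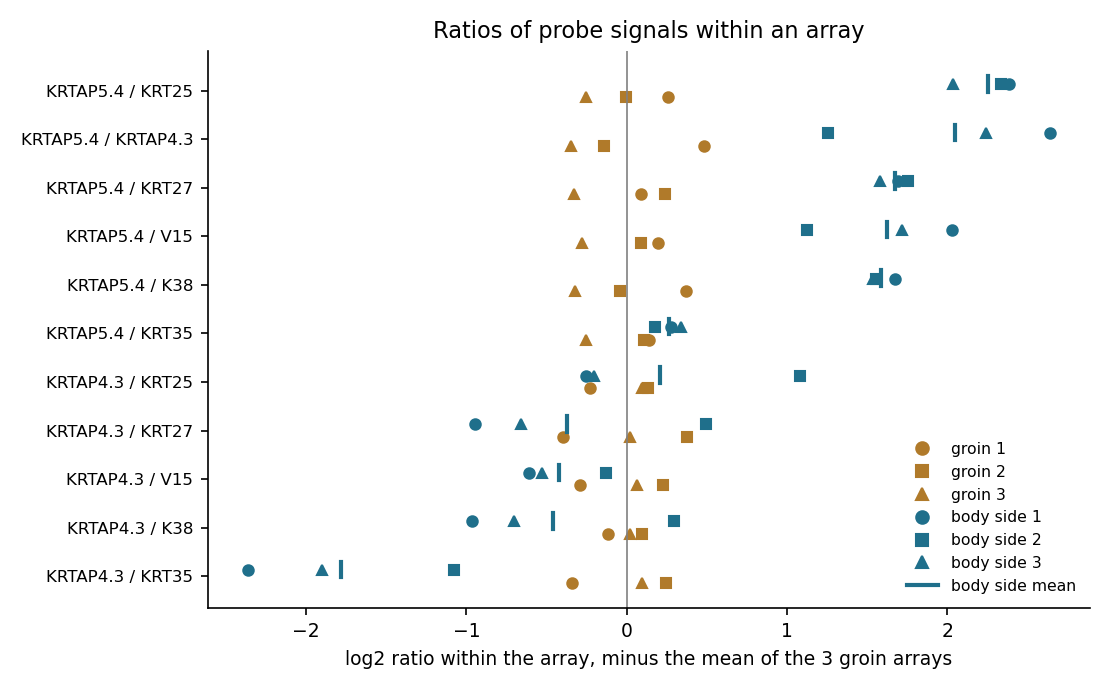
Log2 ratio of 2 probe signals within each array, minus the mean of that ratio over the 3 groin arrays (horizontal axis), for 11 pairs; brown symbols are groin arrays, blue ones body side arrays, the symbol shape gives the replicate and the blue bar the body side mean. KRTAP5.4 moved by 0.26 against KRT35 and by 1.59 to 2.25 against the other genes, and KRTAP4.3 moved by -1.78 against KRT35 and overlapped between sites against the others.

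With the 75th percentile scaling, KRT35 stood nearest to KRTAP5.4 among all named genes, by a distance that is not independent of the ratios above. For each KRTAP gene, the 438 other named genes with complete values were ordered by the root mean square difference of their profiles over the 6 arrays, each centred on its own mean. For KRT35 and KRTAP5.4 it was 0.19, and the next genes were K38 (0.82), KRT27 (0.86), SFTPC, a surfactant protein gene (0.86), and V15 (0.87). Nearest to KRTAP4.3 were BAMBI (0.24), V15 (0.30), CXCL8, a neutrophil attractant (0.30), BMP4 (0.34) and INHBA, an activin subunit (0.42). Such a distance is the spread, over the 6 arrays, of the log2 ratio of the KRTAP gene to the other gene. It therefore restates the ratios, and any factor that scales a whole array cancels in it. These distances describe 6 arrays in which the site difference dominates each profile.

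The gene order of the sheep assembly sets KRTAP4.3 among the type I keratin genes and KRTAP5.4 apart from them. In the gene table KRTAP4.3 lies on the chromosome of KRT25, KRT27, V15, K38 and KRT35. Between it and V15 lie 17 protein-coding genes, and 20 lie between it and KRT35 on the same side. KRT27 lies on the other side, with 22 genes between. KRTAP5.4 is on another chromosome, between IFITM10 and DUSP8. KRT35, nearest to KRTAP5.4 in the profiles above, is therefore not its neighbour; with cyclic loess and the deposited values the difference of K38 was closer. Families of keratin-associated proteins hold many similar copies, and the signal of a probe can include RNA of a near copy; how far this holds for these 2 probes was not tested.

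The site difference was of similar size in the ram and in the ewes. For KRTAP5.4 it was 5.0 in the ram and 4.98 between the ewe means, and for KRTAP4.3 it was 2.84 and 2.99. The interaction of site and sex was 0.018 ± 0.54 SE for KRTAP5.4, with a 95% confidence interval from -1.19 to 1.22, and -0.15 ± 0.44 for KRTAP4.3, with an interval from -1.11 to 0.82. Neither passed (limma unadjusted p of 0.974 and 0.747, adjusted p = 1.00 for both), where 0.113% of all tested probes did. With 1 ram array per site, whose spread is taken to be that of the ewes, the intervals are wide.

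The size of both differences depended on how arrays were scaled, while direction and call held in every setting run. KRTAP5.4 was 16.1-fold higher with quantile normalization (4.01), 15.1-fold with cyclic loess (3.92) and 16.6-fold with the authors' deposited log2 values (4.06). On that deposited scale it was at 12.93, 12.91 and 12.17 on groin arrays 1, 2 and 3 and at 16.86, 16.52 and 16.80 on the body side. KRTAP4.3 had a difference of 2.32 with cyclic loess and was 5.91-fold higher with the deposited values (2.56). Relative to the median of all tested probes, KRTAP5.4 was higher by 3.93 to 5.23 and KRTAP4.3 by 2.23 to 3.0 over all alternatives.

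**Figure D5:**
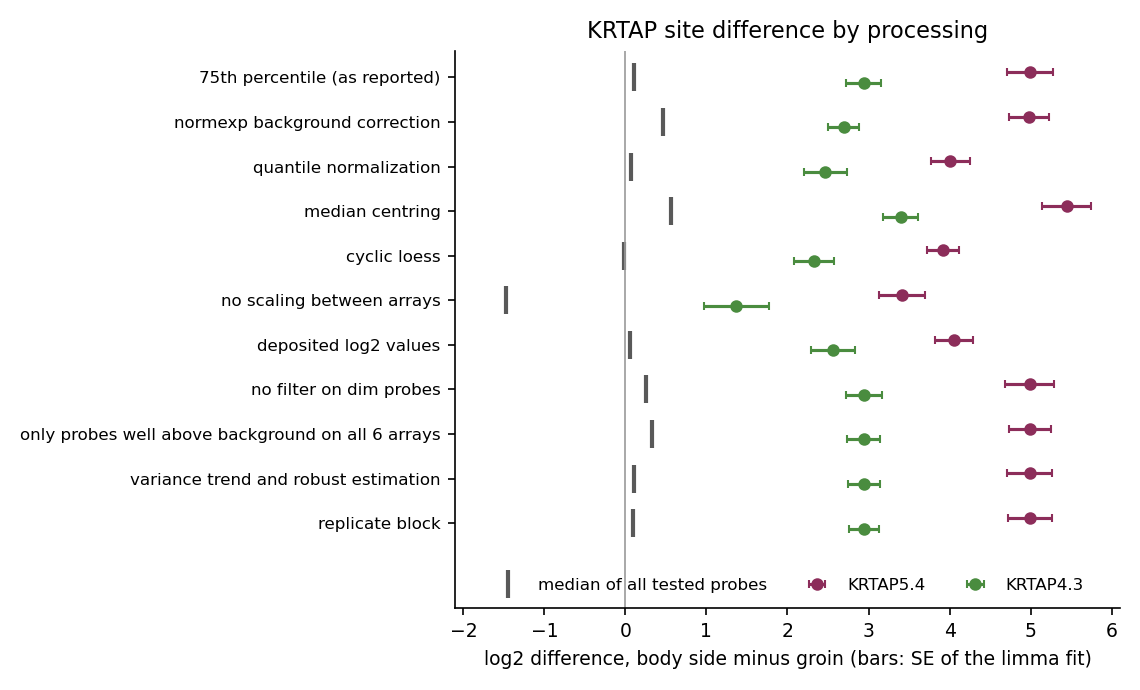
Log2 difference between body side and groin for KRTAP5.4 and KRTAP4.3 (points, with the SE of the limma fit) under each way of processing, with the median of all tested probes as a grey bar. KRTAP5.4 runs from 3.41 to 5.45 and KRTAP4.3 from 1.37 to 3.40, the lowest values being those without scaling, where the median of all probes is at -1.47.

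Markers of other skin components were called in both directions, in a table where 69.9% of all tested probes were called, so their counts do not show that a component differed. No gene of the epidermis list had a named probe, so the labelled tissue was checked on other lists only. Of 11 skeletal muscle markers 4 were tested, of which 3 were higher and 1 lower on the body side, and their summed level (in units of the 75th percentile of the array) ran from 3.48 to 4.67 in the groin and from 6.98 to 9.30 on the body side. Of 8 dermal fibroblast markers 3 were tested, 1 higher and 2 lower, with sums from 84.1 to 94.9 and from 116 to 203. Of 11 sebaceous gland markers 6 were tested, 2 higher and 2 lower, with sums from 6.50 to 7.69 and from 4.54 to 7.67. The brightest of them, PPARG, differed by 0.12 and was not called. SCD was at -6.08 and ACLY at -3.56, and the SCD probe did not clear background on any array of the body side. ACACA was higher by 0.77 and DGAT1 by 0.46, but the second DGAT1 probe was at -0.83. Both tested endothelial markers of 7 were lower, with sums from 0.312 to 0.371 and from 0.145 to 0.168. The tested sweat gland markers (3 of 6) were 2 higher and 1 lower, the adipocyte ones (2 of 8) and the red blood cell ones (2 of 3) 1 higher and 1 lower each, and TYR, the only melanocyte marker tested of 7, was higher. The red blood cell sums ran from 1.58 to 2.28 and from 0.203 to 0.541. A sum follows its brightest probes. The red blood cell one fell through CA1 (-7.06, and -4.48 with its second probe) while the globin HBB was higher by 1.70. The brighter CA1 probe cleared background on only 1 of the 3 body side arrays. The fibroblast sum was set by DCN (0.89) while MMP2 was at -3.71. The 3 tested hair shaft keratins had sums from 12.4 to 15.2 in the groin and from 192 to 256 on the body side. The part of tissue composition in the KRTAP differences was not tested.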

How the data were processed

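Full-thickness skin RNA was amplified with Cy3, 1 array per sample, per the labels' protocols, and the submitters' processing notes name Agilent Feature Extraction 10.5.1.1. The deposited processed signal is an intensity, background-subtracted and detrended within the array, per the file headers. The authors also deposited log2 values whose 6 columns share a median of 8.31; how background was handled is not stated for them. Deposited flags of other kinds (0 or 1 per spot) mark background, outliers and scanner pass.

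Controls were dropped, as were outlier-flagged spots (6 to 51 per array), and the log2 signals of a probe's spots averaged. The 75th percentile over probes was subtracted. Tested probes cleared background on all 3 arrays of either site and had 2 or more values at each. Differences come from limma 3.58.1 in R 4.3.3 (lmFit, eBayes) with Benjamini-Hochberg adjustment over 13278 tested probes and a threshold of 0.05; the code was tested on simulated data. The number of arrays limits the precision. RefSeq accessions in a table of the assembly ARS-UI_Ramb_v3.0 named 734 probes and left 14274 unnamed. The build behind the arrays is unknown, so no coordinates are given, and sequences were not used here. The brightest tested probe stands for a gene.

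Members, lists and tests were chosen with earlier results of these data known. The text names the 2 KRTAP genes, up to 4 genes per fibre and follicle list by smallest adjusted p, and the 5 nearest profiles of each KRTAP gene. The within-array ratios, the comparison with probes of like brightness and the single-spot values were added after the data were seen. Alternatives were normexp (offset 50, on median signals), quantile, median and cyclic loess scaling, no scaling, the deposited values, other filters, a variance trend, a replicate block and leaving out arrays.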

Additional observations from a re-analysis of the deposited data

How the results depend on the processing

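The differences of KRTAP5.4 and KRTAP4.3 kept their direction and stayed past the threshold under all 25 and 19 alternatives. When replicates or single arrays were left out, KRTAP5.4 ran from 4.65 to 5.34 and KRTAP4.3 from 2.81 to 3.10, and the count of called probes from 6510 to 9716 (9279 with all arrays). The ewes' numbers are not said to match between sites, so the replicate numbers were not used as pairs. Deviations of same-numbered arrays from the site means correlated at 0.16 for the ram and 0.09 and -0.09 for numbers 2 and 3. Groin array 3 and body side array 2 gave 0.16 as well, so this correlation cannot tell which arrays share an animal. With the replicate number as a block, the adjusted p was 1.44e-05 for KRTAP5.4 and 2.23e-05 for KRTAP4.3, with 9160 probes called; the block changed neither call.

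Without scaling between arrays, 190 probes were called higher and 9412 lower, against 4918 and 4361 with it; the cause was not tested. Higher calls made up 53.0% of all calls, 68.5% with median centring, 68.5% with normexp and 61.8% with a filter on all 6 arrays. The median difference of all tested probes was 0.56 with median centring, 0.46 with normexp, 0.26 without a filter and 0.33 with the filter on all 6 arrays.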
